A study of Mus musculus with 14 samples.

Results

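The circadian clock genes *Clock*, *Arntl*, *Npas2*, *Per1*, *Per2*, *Per3*, *Cry1*, *Cry2*, *Nr1d1* and *Dbp* were taken by symbol from the gene column of the exon and intron FPKM values of mammary RNA. All 10 were found among 20550 listed genes. FPKM is a fragment count divided by the length of a gene and by a scale of its library, so levels of different genes can be compared within a mouse. It does not correct for the GC content of a gene, which limits such comparisons as described further on. The study asked how the *Wap* super-enhancer, an enhancer cluster of lactating mammary epithelium, acts on its own promoter and on that of the neighboring gene *Tbrg4*. The mice were made by CRISPR-Cas9 in C57BL/6 zygotes. Total RNA came from the mammary glands of 2 wt/Wap-Tbrg4 mice on day 10 of lactation (L10), each with a wt allele and a Wap-Tbrg4 allele, in which a deletion between both promoters joined the first exons of *Wap* and *Tbrg4*. The allele is inherited and not restricted to a cell type, and both libraries carry the same genotype, so no genotypes were compared. The ChIP-seq samples of the series were not analysed here.

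The clock is a loop of transcription and its repression. CLOCK or NPAS2 pairs with ARNTL (BMAL1) on E-boxes and activates the *Per*, *Cry*, *Nr1d1* and *Dbp* genes. PER and CRY proteins then inhibit that pair, NR1D1 (REV-ERBα) represses *Arntl* through RORE elements, and DBP acts on D-boxes. In most mouse tissues the transcripts of *Arntl* and of the E-box genes therefore peak at roughly opposite times of day. The E-box genes need not all peak at the same hour. A mismatch between 2 animals collected at different times could move *Arntl* and the E-box genes in opposite directions. It need not, because the same level is passed on the rise and on the fall of a cycle. The time of day of collection is not given in the sources used here, and 1 collection per mouse gives levels, not a phase. The question asked was whether the levels of the 2 mice lay at the same point of the cycle.

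The members were put into an E-box and a RORE group by what is known of their regulation, not by sequence matches, and *Cry1*, which has both kinds of element and peaks late, was counted with the RORE genes. The elements are shown where a promoter window holds them, to show what the names of the groups refer to. Promoters were the RefSeq windows of 300 bases on GRCm38 (mm10), from 250 bases before to 50 after an annotated start, and were held for 9 of the 10 members, the exception being *Per2*. Both strands were searched for CACGTG (E-box), CACGTT (E′-box, AACGTG on the other strand), TTATGTAA or TTACGTAA (D-box), AGGTCA or GGGTCA (RORE half-site) and TGACGTCA (CRE). Capitals mark the match, and each line is read 5′ to 3′ on the strand of the gene.
*Per1* E-box, chr11:69098774-69098797, plus strand: acccaagtcCACGTGcagggatgt
*Cry1* E-box, chr10:85185100-85185123, minus strand: gccggtggtCACGTGgggtgcatg
*Nr1d1* E′-box, chr11:98775391-98775414, minus strand: acagatctcAACGTGccggctgct
*Per3* upstream D-box, chr4:151044854-151044879, minus strand: acccgcgcgTTATGTAAggtactcgg
*Per3* downstream D-box, chr4:151044807-151044832, minus strand: cgcccgcggTTATGTAAcccccgccg
*Arntl* RORE half-site, chr7:113207533-113207556, plus strand: gcagaaagtAGGTCAgggacggag

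The *Per1* E-box began 166 bases before the start, the *Cry1* E-box 60 bases before it and the *Nr1d1* E′-box 28 bases before it. The *Per3* promoter held 2 copies of TTATGTAA, 205 and 158 bases before its start, and the *Arntl* half-site lay 31 bases after the start. *Cry1* and *Cry2* also held an E′-box, and *Clock* and *Per1* a RORE half-site. No promoter of a member held the CRE sequence. Of 32851 promoters of this length, 7.15% held the E-box, 4.68% the E′-box, 1.06% a D-box, 27.5% a RORE half-site and 1.79% the CRE. The half-site is therefore common by its letters alone. These matches describe the reference sequence, and binding was not measured in the values used here.

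The libraries were alike in total exon reads but not in composition. The lowest FPKM values of short genes fell on multiples of what 1 read is worth, from which about 11900000 exon reads were estimated for replicate 1 and 11300000 for replicate 2. The same FPKM rested on fewer reads in replicate 2, as for *Per1* with about 243 and 115 exon reads at 5.2 and 4.8 FPKM. Summed over genes, exon FPKM reached 852961 and 1788119 in replicates 1 and 2, and the secretory markers *Csn2*, *Lalba*, *Wap*, *Elf5*, *Krt8* and *Krt18* made up 290305 and 725253 of it. All 6 were detected in both mice, but the sum followed *Csn2* (108555 and 481937), and 3 of the 6 were lower in replicate 2, among them *Krt8* (31.4 and 14.6) and *Krt18* (145 and 57.6). Adipocyte markers (6 genes, 2 lower in replicate 2) summed to 657 and 744 FPKM, of which *Fabp4* gave 502 and 564, while *Plin1* gave 7.8 and 2.6. Fibroblast markers (3 genes) summed to 70.0 and 93.4, with *Dcn* at 42.9 and 78.4 and *Col1a1* at 23.5 and 11.2. Endothelial markers (3 genes) summed to 46.1 and 40.1, and the myoepithelial markers *Krt5*, *Krt14*, *Acta2* and *Oxtr* to 43.4 and 32.5 with *Acta2* listed at 0 in both. Skeletal muscle markers (3 genes) summed to 20.4 and 7.5, macrophage markers (3 genes) to 11.7 and 7.6, and T and B cell markers (3 genes) to 3.0 and 3.7. These marker values are as deposited, before the GC correction described further on. With it the median exon log2 ratio, replicate 2 over replicate 1, went from -1.24 to -0.55 for skeletal muscle markers. For macrophage markers it went from -0.49 to -0.20, and for secretory markers it stayed at 0.05. In bulk tissue fewer cells of a type and less RNA per cell cannot be told apart, and the part of these differences in the values of the clock genes was not tested.

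All 10 clock genes were detected in exons of both mice, at 1.1 to 20.4 FPKM. *Nr1d1*, the nuclear receptor that represses *Arntl*, had the highest level of the members with 16.9 FPKM in replicate 1 and 20.4 in replicate 2. It stood at the 83.3 percentile of the 9845 genes whose exon FPKM averaged 1 or more. *Npas2*, the alternative partner of ARNTL, was at the lower end with 1.1 and 1.5 FPKM, the 5.73 percentile. The members thus spanned most of the range of expressed genes, and none belonged to the abundant transcripts of this tissue.

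Among the activators, *Clock* (chr5:76209868-76304792, minus strand) gave 6.4 FPKM in replicate 1 and 9.2 in replicate 2. *Arntl* (chr7:113207465-113314126, plus strand), the shared partner, gave 4.2 and 3.6, and *Npas2* lies at chr1:39194272-39363240 on the plus strand. *Clock* exceeded *Npas2* by 5.82-fold in replicate 1 and 6.13-fold in replicate 2 (5.98 ± 0.22, SD, n = 2), so *Clock* was the main transcript of the 2 related partners in both mice.

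Among the repressors, *Per1* (chr11:69098949-69109960, plus strand) gave 5.2 FPKM in replicate 1 and 4.8 in replicate 2. *Per3* (chr4:151003655-151044665, minus strand) gave 3.3 and 3.9, and *Per2* (chr1:91415982-91459328, minus strand) gave 1.4 and 1.5. *Per1* was therefore the most abundant of the *Per* transcripts in both mice, 3.71-fold and 3.20-fold over *Per2*. *Cry1* (chr10:85131700-85185054, minus strand) gave 3.0 and 2.8 FPKM, and *Cry2* (chr2:92403646-92434069, minus strand) gave 1.9 and 1.6. *Cry1* was higher than *Cry2* by 1.58-fold and 1.75-fold. *Dbp* (chr7:45705247-45710203, plus strand), a PAR bZIP activator of clock output, gave 9.9 and 7.9 FPKM, second to *Nr1d1* (chr11:98767932-98775377, minus strand) in replicate 1 and below *Clock* in replicate 2.

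The order of the 10 levels was nearly the same in both mice. *Dbp* and *Clock* traded the second place and *Arntl* and *Per3* the fifth, and *Per2* and *Npas2* tied at 1.5 FPKM in replicate 2. The ranges of the 2 mice overlapped within each of these pairs. Between *Nr1d1* and *Dbp*, *Clock* and *Per1*, *Per1* and *Arntl*, *Per3* and *Cry1*, *Cry1* and *Cry2*, and *Cry2* and *Per2*, the ranges were separate. These ranges, and the ratios between related genes given above, leave out counting error and the relation to GC content given further on. In replicates 1 and 2, *Cry2* rested on about 75 and 33 exon reads and *Per2* on about 81 and 45. Across the 10 genes the log2 levels of the 2 mice had a Pearson r of 0.97 and a Spearman rho of 0.97, compared with 0.94 and 0.92 across the 9845 genes. These are correlations across genes that share both libraries, and genes are not independent replicates.

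**Figure D1:**
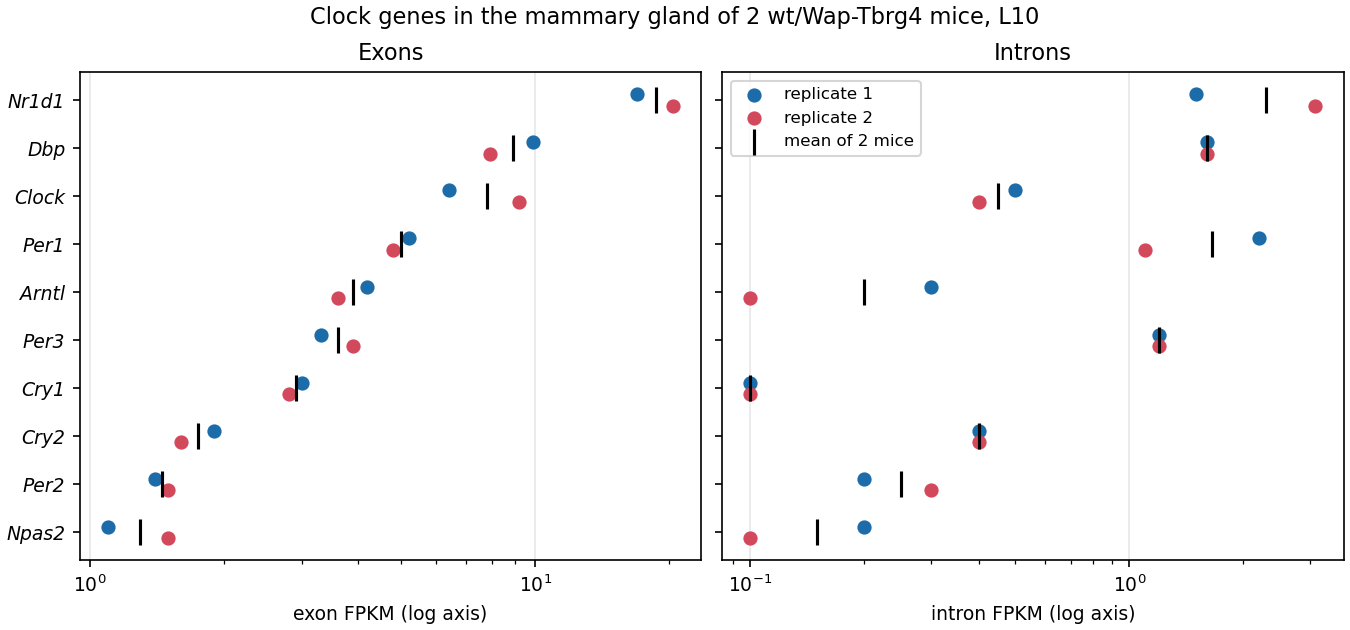
Exon FPKM (left) and intron FPKM (right), on log axes, of the 10 clock genes in replicate 1 (blue) and replicate 2 (red), with black bars at the mean of the 2 mice. Exon levels run from 1.1 FPKM for Npas2 to 20.4 for Nr1d1, and in introns the points of the 2 mice lie 2-fold or more apart for Nr1d1, Per1, Arntl and Npas2.

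Differences between the animals were taken as log2 ratios, replicate 2 over replicate 1, on exon FPKM + 1. With 1 mouse on each side no test exists, so a gene was called different when its ratio passed 2-fold. None of the 10 clock genes did so in exons, where 5.9% of the 9845 genes did, and none passed 1.5-fold, where 23.7% did. The median size of the log2 ratio was 0.18 for the clock genes and 0.33 for all genes. That order reversed after the GC correction described further on, with 0.39 for the clock genes and 0.23 for all genes. Of the members, 5 had a higher and 5 a lower value in replicate 2. The 6 E-box genes (*Per1*, *Per2*, *Per3*, *Cry2*, *Nr1d1*, *Dbp*) had a median log2 ratio of -0.02, the 4 RORE genes (*Arntl*, *Npas2*, *Clock*, *Cry1*) 0.09 and all genes -0.08. The groups did not part in opposite directions in the deposited exon values.

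How far each ratio could be measured was estimated from the reads behind it. Values were converted to approximate reads with RefSeq lengths, and exact 95% binomial (Clopper-Pearson) intervals were widened by the rounding of the deposited values to 1 decimal. They cover counting and rounding error only and not the variation between animals. The exon ratio of *Clock*, from about 629 and 465 reads, was 1.44 (1.26 to 1.65), and that of *Nr1d1*, from about 463 and 287 reads, was 1.21 (1.03 to 1.41). These were the only members whose exon interval did not include 1. The ratio of *Arntl*, from about 122 and 54 reads, was 0.857 (0.595 to 1.22), and that of *Dbp*, from about 165 and 68 reads, was 0.798 (0.585 to 1.08). For *Npas2*, with about 46 and 32 reads, the interval ran from 0.773 to 2.40, which includes both equal levels and a 2-fold difference.

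**Figure D2:**
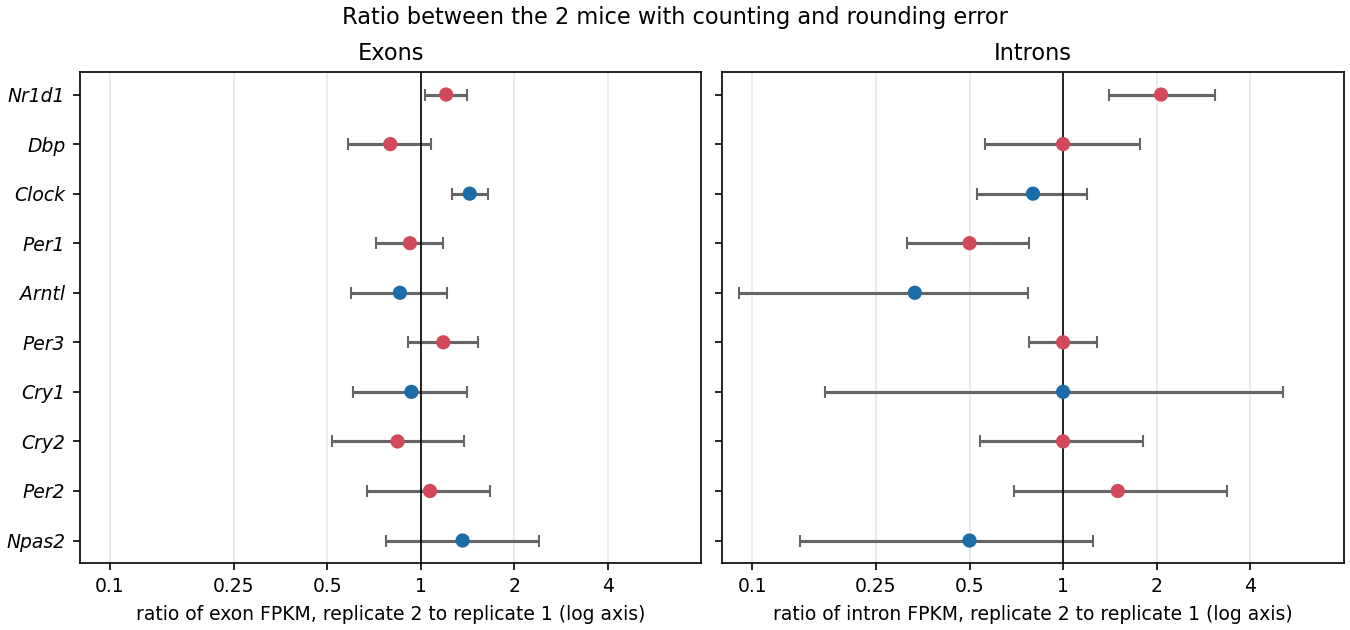
Ratio of replicate 2 to replicate 1 in exon FPKM (left) and intron FPKM (right), on log axes, of the E-box genes (red) and RORE genes (blue). Bars are 95% intervals for counting and rounding error only, and the vertical line marks equal levels. In exons only the bars of Nr1d1 and Clock miss the line, and in introns those of Nr1d1, Per1 and Arntl do.

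In ratios between clock genes within a mouse the scaling of the library cancels. *Nr1d1* exceeded *Arntl*, the transcript its protein represses, by 4.02-fold in replicate 1 and 5.67-fold in replicate 2. *Dbp* exceeded *Arntl* by 2.36-fold and 2.19-fold. *Clock* to *Arntl* was 1.52 and 2.56. On the log2 scale of FPKM + 1 the shift from replicate 1 to replicate 2 was 0.43 for *Nr1d1*, -0.12 for *Dbp* and 0.64 for *Clock*. These shifts still depend on GC content. After the GC correction described further on they were 0.98, 0.75 and 0.35, so that of *Dbp* changed its direction and that of *Clock* was no longer the largest of the 3. The exon intervals of *Dbp* and *Arntl* themselves included 1.

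Introns gave a different picture for a few members. Intron reads come mostly from RNA that is not yet spliced and so follow transcription more closely than exons. *Per1* had 2.2 intron FPKM in replicate 1 and 1.1 in replicate 2, a ratio of 0.5 (0.315 to 0.778), while its exons gave 0.923 (0.718 to 1.18). *Nr1d1* had 1.5 and 3.1, a ratio of 2.07 (1.40 to 3.07). These E-box genes therefore differed in opposite directions. *Dbp* had 1.6 and *Per3* 1.2 intron FPKM in each mouse, with ratios of 1.00 (0.563 to 1.76 and 0.776 to 1.29).

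The remaining 6 members lay under the mean of 0.5 FPKM used as the floor for introns. *Arntl* had 0.3 in replicate 1 and 0.1 in replicate 2, a ratio of 0.333 with an interval of 0.0905 to 0.772. *Clock* had 0.5 and 0.4, *Cry2* 0.4 in each mouse, *Per2* 0.2 and 0.3, *Npas2* 0.2 and 0.1, and *Cry1* 0.1 in each mouse. The *Arntl* interval did not include 1, but a shift of 0.05 FPKM by rounding is a large part of these values. With a pseudocount of 0.1, none of the 4 members above the floor passed 2-fold, where 5.9% of 4220 genes did. *Nr1d1* sat exactly at the limit with a log2 ratio of 1, above 96.1% of these genes, and *Per1* at -0.94, at the 4.88 percentile. Past 1.5-fold were *Nr1d1* and *Per1*, where 21.4% of genes were.

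The share of unspliced RNA also set members apart. *Per1* had 2.36 times as much exon as intron FPKM in replicate 1 and 4.36 times in replicate 2, and *Per3* 2.75 and 3.25 times. By the mean intron level relative to the exon level these were at the 97.4 and 97.5 percentile of genes. *Arntl* gave 14.0 and 36.0, *Clock* 12.8 and 23.0, and *Cry1* 30 and 28. The transcripts of *Per1* and *Per3* thus carried more intron signal per exon signal than those of *Arntl*, *Clock* and *Cry1* in both mice.

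Neighboring genes bear on some of these values. On the opposite strand, *Thra* covers 488 exon bases of *Nr1d1* and had 5.2 and 2.6 exon FPKM, and *Sphk2* covers 539 exon bases of *Dbp* and had 9.2 and 3.8. Both neighbors were lower in replicate 2, as was *Dbp*, whereas *Nr1d1* was higher. Their part in the values of *Nr1d1* and *Dbp* was not tested. *D930015M05Rik* covers 1569 exon bases of *Cry2* at 0.5 and 0.3 FPKM, and *Uts2*, which overlaps *Per3*, was listed at 0. The noncoding *Gm35591* covers 784 exon bases of *Per2* on the opposite strand and has no listed value. Other unlisted noncoding genes and pseudogenes overlap *Arntl*, *Npas2* and *Clock*, but none covers their exons. The library kit keeps strand, but the strand setting of the counting is not given in the sources used here, so reads of the overlapping parts cannot be assigned with certainty. Aligned to the genome, the coding sequences of 9 members had no other place at 95% identity. *Per3* had 2, of which the longer covered 20.7% of its coding sequence.

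GC content separated the 2 libraries and differed among the clock genes. Across 9839 genes the exon log2 ratio fell with the GC content of the exons, with a Spearman rho of -0.66, and across 4217 genes in introns with -0.38. Exon GC content of the members ran from 41.6% in *Clock* to 61.6% in *Dbp*, and all 6 E-box genes had at least 52.3% whereas *Arntl* had 48.1%. The curve through all genes stood at -0.84 at the GC content of *Dbp* and at 0.31 at that of *Clock*. The deposited log2 ratios of the members rich in GC lay above it, with -0.29 for *Dbp* and a curve value of -0.84, -0.10 and -0.71 for *Per1*, and 0.26 and -0.53 for *Nr1d1*.

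**Figure D3:**
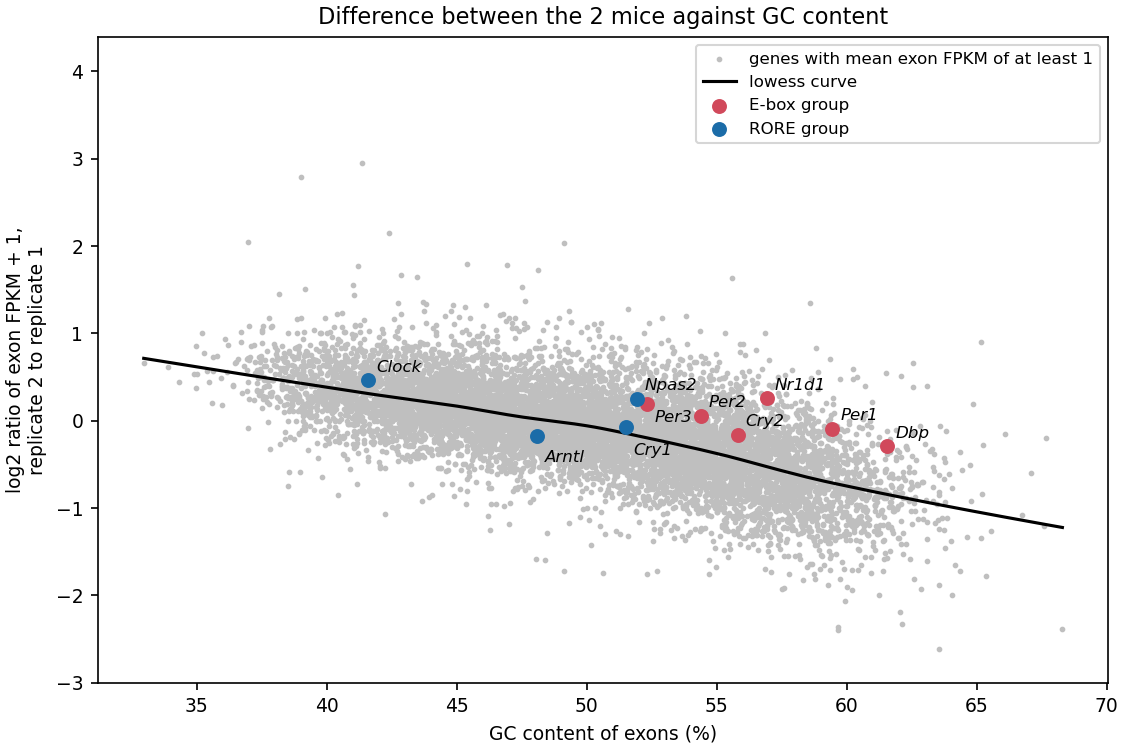
Log2 ratio of exon FPKM + 1 between replicate 2 and replicate 1 against the GC content of the exons, for 9839 genes (grey) with their lowess curve (black), the 6 E-box genes (red) and the 4 RORE genes (blue). The E-box genes lie above the curve, and Arntl lies below it.

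When the curve was subtracted, the E-box genes stood above 0 together. *Nr1d1* had a GC-corrected exon log2 ratio of 0.78, above 97.2% of genes, *Per1* 0.62, *Dbp* 0.55, *Per2* 0.39, *Per3* 0.38 and *Cry2* 0.28. *Npas2* had 0.42, *Clock* 0.15 and *Cry1* 0.07, and *Arntl* was the single member below 0, at -0.20 and the 28.3 percentile. The median was 0.47 for the E-box genes and 0.11 for the RORE genes, whereas all genes were split evenly, 4923 above and 4916 below 0. None of the members passed 2-fold, where 1.91% of genes did, and 2 (*Nr1d1* and *Per1*) were past 1.5-fold higher, as were 6.48% of genes. In introns, where *Nr1d1* reached 1.31 and *Per1* stayed below 0 at -0.58, *Nr1d1* alone was past 2-fold higher, as were 3.01% of genes.

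The curve was fitted on the same 2 libraries, and it turned the relation of the 10 members to GC content around, from a rho of -0.38 before correction to 0.81 after it. Fitted only on 8332 genes with a mean exon FPKM of 1 to 20, the curve left 9 members above 0, with 0.61 for *Per1*, 0.78 for *Nr1d1* and -0.19 for *Arntl*. The median of the E-box group was -0.02 as deposited and 0.47 after GC correction. It was -0.76 when each mouse was rescaled to the same summed exon FPKM. That rescaling lowers replicate 2 for all genes, and the RORE median became -0.64, so it is not a shift of the E-box group alone. Centred on the median gene, the E-box median was 0.057. The cause of the relation to GC content was not tested.

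The other genes of the clock pathway were read from a list of 25, of which 19 averaged at least 1 FPKM in exons. None passed 2-fold, where 5.9% of the 9845 genes did. Of the 19, 8 were higher and 11 lower in replicate 2, where 4184 and 5455 of the 9845 genes were. The highest were the RORE activator *Rora* with 21.9 FPKM in replicate 1 and 29.1 in replicate 2, the paralog of *Nr1d1*, *Nr1d2*, with 23.5 and 26.5, and *Por*, which supplies electrons to cytochrome P450 enzymes, with 24.0 and 11.5. On FPKM + 1 *Por* lay exactly at 2-fold, with a log2 ratio of -1, and at -0.40 after GC correction. Without the pseudocount its FPKM was 2.09-fold higher in replicate 1. *Rorb* and *Fbxl21* were listed at 0 in both mice. *Nr1d2* exceeded *Nr1d1* in both, by 1.39-fold and 1.30-fold.

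Other members of that list are named here after their values were seen. *Nfil3*, which represses through D-boxes and so opposes DBP, had 3.6 and 1.8 exon FPKM, and the ratio of 0.5 had an interval of 0.273 to 0.886. It and *Por* were the 2 of the 19 genes past 1.5-fold, where 23.7% of all genes were, and neither was after GC correction, with -0.38 for *Nfil3*. *Tef* and *Hlf*, relatives of *Dbp*, had 14.1 and 12.6 and 12.9 and 18.6 FPKM. In introns they parted, with 1.9 and 3.2 for *Tef* and 2.5 and 1.4 for *Hlf*. The E-box repressor *Bhlhe40* had 17.1 and 12.3, and *Wee1*, a cell cycle kinase under E-box control, 3.4 and 4.9. After GC correction 10 of the 19 were above and 9 below 0, with a median of 0.03, compared with 9 of the 10 members above 0.

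**Figure D4:**
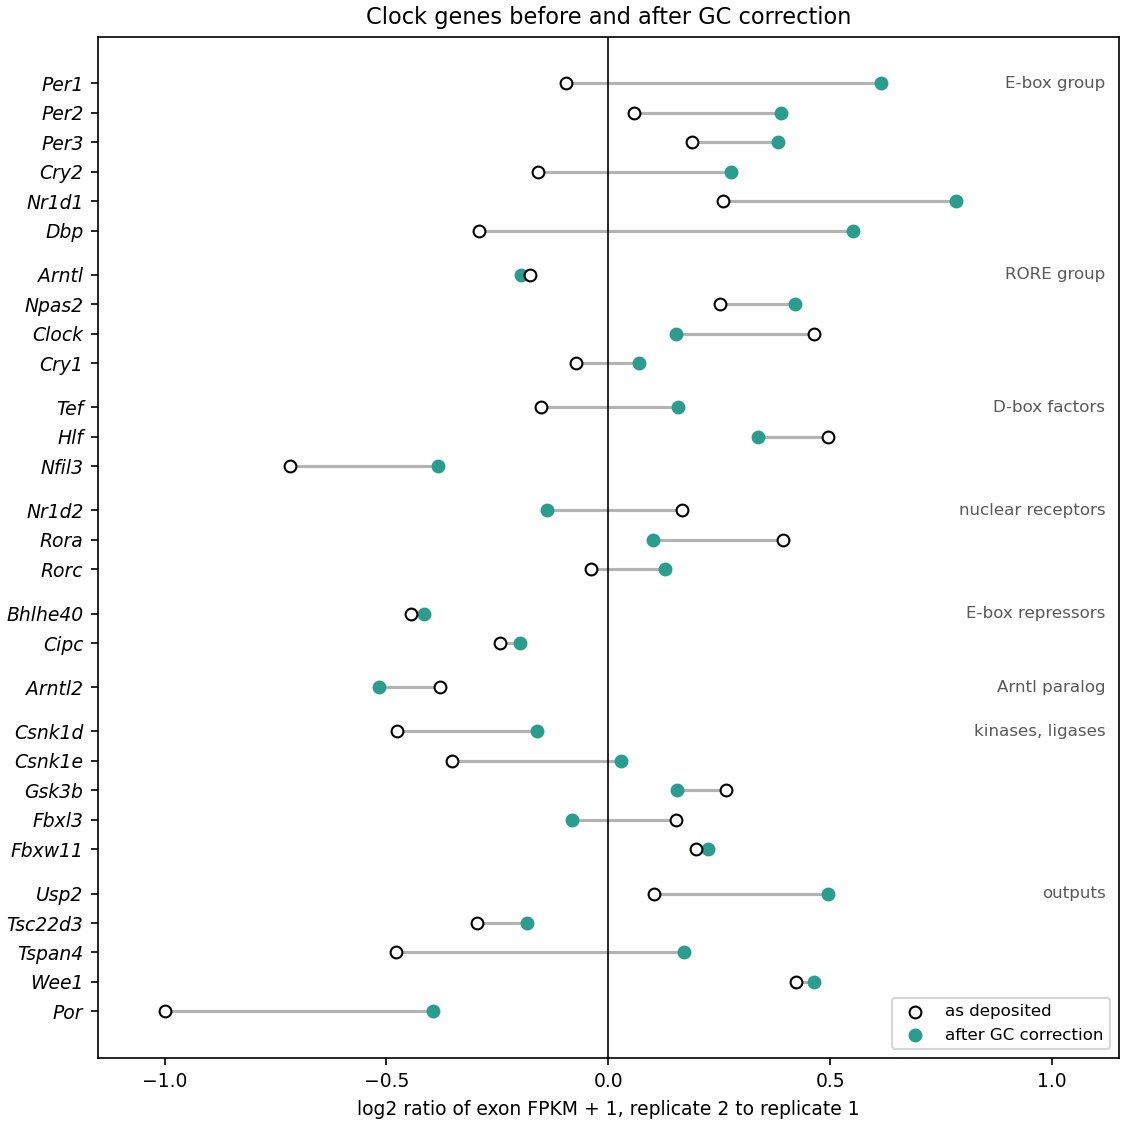
Exon log2 ratio of replicate 2 to replicate 1 of the 10 clock genes and of the 19 genes of the wider list that average at least 1 FPKM in exons, grouped by role, as deposited (open) and after GC correction (filled). The filled points of all 6 E-box genes lie to the right of 0, from 0.28 to 0.78, and those of the wider list lie on both sides.

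Glucocorticoids and immediate early signals can set *Per1* and *Per2* apart from the loop. Of 12 such genes 10 were read. The 5 glucocorticoid responsive genes had a median exon log2 ratio of -0.28. *Fkbp5* gave 8.2 and 6.6 FPKM, whereas *Klf9*, the only 1 higher in replicate 2, gave 30.9 and 36.3. Of these 5 genes 4 were lower in replicate 2, as were 5455 of the 9845 genes. *Tsc22d3*, 1 of the 5, is also in the wider list. Of the immediate early genes, 5 were listed and 3 passed the floor, with a median of -0.18. Of these 3, *Fos* gave 8.6 and 6.3 and *Dusp1* 4.1 and 3.5, whereas *Egr1* gave 1.4 and 1.7. After GC correction these medians were -0.17 and 0.16.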

How the data were processed

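Total RNA was extracted from L10 mammary glands with a PureLink RNA Mini kit, made into TruSeq Stranded Total RNA libraries and sequenced on an Illumina system. The authors mapped reads to mm10 with STAR, counted them with HTSeq on collapsed exons and the introns between them (UCSC known genes), and generated the deposited FPKM with DESeq2, given with 1 decimal. Versions, strand setting and the treatment of reads with several places are not given in the sources used here. Both libraries were mapped to their group and replicate by title. Members and lists were chosen with earlier results of these data known.

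Genes without a usable symbol (35) were left out of comparisons across genes. GC content and lengths came from curated RefSeq transcripts on GRCm38.p6, matching 99.7% of symbols. Log2 ratios used pseudocounts of 1 (exons) and 0.1 (introns) and floors of 1 and 0.5 mean FPKM. GC correction subtracted a lowess curve over 30% of the genes. Depth was estimated from steps in FPKM times length: 1 read is worth about 101 in replicate 1 and 196 in replicate 2, and 91.3% of 23 and 87.2% of 109 values lay within 0.2 of a whole read. The named genes are the members, the genes of the wider list past 2-fold, its 3 highest and those at 0, and genes overlapping a member that have listed values. Further genes are named from the wider list after their values were seen, and from the timing cues and cell type markers. The GC correction, the ratios and the depth estimate were tested on simulated data. Alternatives to the pseudocount, scaling, filter, fold, GC content and group membership were tried. Near-identical copies were sought with minimap2 2.31 at 95% identity. Calculations ran in Python (3.11.15). They used statsmodels (0.14.6) for lowess, pandas (2.3.3) and numpy (2.4.6) for tables, scipy (1.17.1) for intervals, and matplotlib (3.10.9) for plots.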

Additional observations from a re-analysis of the deposited data

How the results depend on the processing

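No paired analysis was possible because both mice belong to 1 group. Rescaling each mouse to a summed exon FPKM of 1000000, a sum that rests mostly on milk protein genes, lowered replicate 2 throughout. The exon medians became -0.76 (E-box) and -0.64 (RORE), and the intron medians -0.89 and -1.09. Past 2-fold lower were 1 member in exons, 1 in introns and 9 genes of the wider list in exons. The share of all genes past it on this scale is not given here, so these counts show nothing particular to clock genes. The median of the members' mean exon FPKM became 3.25. GC correction moved the E-box exon median from -0.02 to 0.47 (0.47 also with the curve of genes at 1 to 20 FPKM, chosen after seeing the data). The E-box intron median moved from 0 to 0.24 over all 6 genes, and to 0.17 over the 4 above the floor. In introns 1 member went past 2-fold. Over all 10 timing cues, with *Fosb* and *Nr4a1* under the floor, the exon median moved from -0.27 to -0.0070 (added after seeing the data). The correction also turned the shift of *Dbp* to *Arntl* from -0.12 to 0.75 (added likewise). At 1.5-fold 2 members passed in introns and 2 genes of the wider list in exons. A pseudocount of 0.1 took 1 gene of the wider list past 2-fold and gave log2 ratios to *Arntl* of 1.22 and 1.11 for *Dbp* and 1.98 and 2.47 for *Nr1d1*, and 0.5 gave the RORE genes an intron median of -0.19, compared with -0.42. Leaving out single members moved the RORE exon median from -0.074 (without *Npas2* or *Clock*) to 0.25 (without *Arntl* or *Cry1*). The RORE intron median ran from -0.58 (without *Clock* or *Cry1*) to -0.26 (without *Arntl* or *Npas2*). The exon median changed sign and all 4 RORE genes lay under the intron floor, so no direction is given for this group. Of 72 values under these settings, 43 stayed as given, where a log2 median within 0.1 of the main value was counted so. This includes changes of sign near 0, as for the E-box exon median of 0.057 when centred on the median gene. Depth limits the members under 2 FPKM and all introns under 0.5 FPKM, which rest on few reads or 1 decimal.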
